A study of Mus musculus with 20 samples.

Results

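Expression of 10 genes of the CD8 coreceptor and of T-cell receptor (TCR) modulation was followed in small-intestinal intraepithelial lymphocytes (IELs), the T cells lodged between gut epithelial cells. The members were chosen by symbol: Cd8a, Cd8b1, Cd2, Cd28, Cd5, Cd6, Lck, Fyn, Lat and Themis. All 10 were found in every table, among 12975 genes in the reporter experiment, 13766 in the Bcl6, 13624 in the Prdm1 and 25036 in the Tcf7 experiment. CD8αα+ αβ IELs of steady-state mice were profiled by bulk RNA-seq in 18 of the 20 libraries. From homozygous Bcl6-RFP reporter mice (genotype Bcl6-RFP/RFP), cells positive for both RFP and CD160 (RFP+) gave 3 libraries and cells negative for both (RFP-) gave 3. The knockout groups, with 2 libraries each, were the whole CD8αα+ αβ IEL populations of Bcl6fl/fl Cd8cre, Prdm1fl/fl Cd8cre and Tcf7fl/fl Cd8cre mice. Their controls, also with 2 libraries each, came from Bcl6fl/fl, Prdm1fl/fl and Tcf7fl/fl littermates. Cd8cre is present in every knockout and in no littermate by genotype label, so an effect of the Cre transgene itself cannot be told apart from loss of the gene. The labels do not say which Cd8 element drives it or how many mice a library pools, nor the age of the mice. Another 2 libraries of the reporter genotype, titled LI, have no group in the labels, which give their tissue as small intestine. The comparisons ask how these receptors and signalling proteins differ between Bcl6-RFP+ and RFP- IELs, and how they change without BCL6, BLIMP1 (encoded by Prdm1) or TCF1 (encoded by Tcf7).

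The TCR has no kinase of its own. The Src-family kinases LCK and FYN phosphorylate its CD3 chains, and the membrane adaptor LAT assembles the signalling complexes that follow. LCK is carried to the receptor by the tail of CD8α. Conventional cytotoxic T cells carry CD8 as an αβ heterodimer, whereas the IELs sorted here are defined by CD8αα homodimers, which bind the thymus leukaemia antigen (H2-T3) on gut epithelium. CD2, which binds CD48 in mice, and CD28, which binds CD80 and CD86, add costimulation. CD5 and its relative CD6, which binds ALCAM, are scavenger-receptor family proteins that tune TCR signals, CD5 mainly downwards. THEMIS is a T-cell protein required for thymocyte selection. Low CD2, CD5 and CD28 is a textbook trait of the CD8αα+ αβ IELs that arise directly from thymic precursors.

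Depth was 14540000 to 17370000 reads for sorted cells, 22120000 to 23000000 for the Bcl6 deletion, 30139000 to 38385600 for the Prdm1 deletion and 40975300 to 48206400 for the Tcf7 deletion. The depths of sorted and Bcl6 libraries were fitted to FPKM values, and those of Prdm1 and Tcf7 libraries are sums of recovered reads. Values are FPKM in the reporter and Bcl6 tables. In the Prdm1 and Tcf7 tables they are reads divided by a size factor of the library (here signal), without gene length, so no level is compared across experiments. As a check of the labels, Cd160 averaged 238 ± 5.7 in RFP+ and 66 ± 3.94 FPKM in RFP- libraries (SD, n = 3 each). Bcl6 averaged 15.3 ± 2.33 in RFP+ and 3.45 ± 0.144 FPKM in RFP- libraries. Transcript of both sorting genes was thus still present in the cells sorted as negative. In the knockout experiments, Prdm1 was at 640 and 362 in Prdm1 knockout libraries, against 6092 and 5117 in littermates (signal). Tcf7 was at 7757 and 7993 in Tcf7 knockouts, against 15430.3 and 15606 in littermates (signal), a ratio of group means of 0.508. Bcl6 was under 1 FPKM in all 4 libraries of the Bcl6 experiment, which checks those labels only weakly. It averaged 0.594 ± 0.0624 in Bcl6 knockouts and 0.754 ± 0.026 FPKM in littermates (SD, n = 2 each). Transcript of each deleted gene thus remained in its knockouts. Of 8 genes for T-cell identity, 5 were measured (Cd3d, Cd3e, Cd3g, Cd247 and Cd8a), and all 5 were above the filter in every library. Their sum, Cd8a included, was 1163 to 1276 FPKM in RFP+ and 1674 to 1764 FPKM in RFP- libraries. Cd3e (averages 167 in RFP+ and 234 FPKM in RFP- libraries) and Cd3g (250 and 368) were called lower, as was Cd8a. Cd3d (198 and 187) and Cd247 (15.9 and 16.7) were not called. The summed level of the 9 markers of conventional CD8αβ and CD4 T cells, Cd8b1 among them, was 11.4 to 14.2 FPKM in RFP+ and 11.7 to 12.5 FPKM in RFP- libraries, with markers that moved in opposite directions. Il7r (1.63 ± 0.0756 in RFP+ and 0.122 ± 0.0659 FPKM in RFP- libraries) and Cd40lg (4.41 ± 1.38 in RFP+ and 1.12 ± 0.475 FPKM in RFP- libraries) were called higher, Il7r through the RFP+ group alone passing the filter, and Zbtb7b was called lower (4.64 ± 0.0799 in RFP+ and 9.16 ± 0.295 FPKM in RFP- libraries; SD, n = 3 each). Under the filter, S1pr1 averaged 0.702 in RFP+ and 0.197 FPKM in RFP- libraries and Ccr7 averaged 0.197 in RFP+ and 0.0506 FPKM in RFP- libraries. The NK and innate lymphoid list (5 of 6 measured) summed to 25.4 to 25.9 in RFP+ and 18.3 to 21.7 FPKM in RFP- libraries, the B and plasma cell list (5 of 6) to 13.8 to 15.04 and 17.1 to 19.9 FPKM, and the epithelial list (9 of 9) to 35.9 to 45.6 and 47.9 to 92.2 FPKM. Each sum was mostly 1 or 2 genes. Klrb1c of the NK list was called higher (13.7 in RFP+ and 6.64 FPKM in RFP- libraries) and Gata3 lower (11.5 and 13.4). Cd79b of the B list was called lower (13.4 and 17.5), while Cd79a, under the filter, averaged 0.602 and 0.378. Epcam of the epithelial list was called lower (31.8 and 46.7). Of 6 γδ T-cell genes only Sox13 was measured, at no more than 0.153 FPKM. The part of other cells in the results on sorted cells was not tested. In bulk RNA, fewer cells of a type and less RNA per cell cannot be told apart. Nothing in the labels says that libraries of a group came from separate mice, so p-values measure the spread between these libraries, which may be technical.

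Of the 10 members, 6 had an entry in the RefSeq promoter table (GRCm38.p6): Cd8a, Cd5, Themis, Fyn, Lat and Lck. The 250 bases before the first listed start are shown for Cd8a, Cd5 and Themis, which had the widest called changes in RFP+ cells or in Tcf7 knockouts among these 6. Each sequence is on the strand of its gene, 5′ to 3′, and capitals mark matches to the motifs given after them. The windows are chr6:71373177-71373426 on the plus strand for Cd8a, chr19:10738975-10739224 on the minus strand for Cd5 and chr10:28668110-28668359 on the plus strand for Themis.
Cd8a: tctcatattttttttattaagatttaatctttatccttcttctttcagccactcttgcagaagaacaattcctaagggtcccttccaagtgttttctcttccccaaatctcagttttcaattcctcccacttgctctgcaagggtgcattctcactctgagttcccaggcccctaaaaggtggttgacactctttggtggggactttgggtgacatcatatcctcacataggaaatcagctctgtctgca
Cd5: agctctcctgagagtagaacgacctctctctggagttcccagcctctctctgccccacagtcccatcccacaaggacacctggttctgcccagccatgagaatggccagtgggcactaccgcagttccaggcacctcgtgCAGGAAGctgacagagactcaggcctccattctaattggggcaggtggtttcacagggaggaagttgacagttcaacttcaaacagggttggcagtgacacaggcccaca
Themis: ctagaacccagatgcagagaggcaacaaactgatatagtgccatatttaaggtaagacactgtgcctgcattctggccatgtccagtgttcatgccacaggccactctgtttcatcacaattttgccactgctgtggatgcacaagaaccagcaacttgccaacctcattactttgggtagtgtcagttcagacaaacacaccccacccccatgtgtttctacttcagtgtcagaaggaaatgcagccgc
Both strands were searched. The letters were AGTGAAAG or AGCGAAAG for BLIMP1, TTCCTNGAA for BCL6, CCGGAAG besides CAGGAAG for ETS factors, TGTGGTT besides TGCGGTT for RUNX, and for TCF1/LEF1 the letters CTTTGAA, with its spelling variant CTTTGAT, a further variant CTTTGTA, and the last variant CTTTGTT. The only match in these 3 windows was CAGGAAG, 110 to 104 bases before the Cd5 start. An ETS spelling is held by 17% of all 32851 windows of this length, a TCF1/LEF1 spelling by 14.8%, a RUNX spelling by 5.6%, a BLIMP1 spelling by 1.5% and a BCL6 spelling by 1.3%. A match or its lack describes the letters of these windows only.

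RFP+ cells had less of the coreceptor transcript and more of the CD2 and THEMIS transcripts than RFP- cells, while Lck differed little in FPKM and in a direction that depended on the scaling. Cd2 was 10.1-fold higher and Themis 3-fold higher by group means, Lat rose by a smaller margin, and Cd8a and Fyn were lower. Of the 7 members that reached 1 FPKM in at least 3 libraries, limma called 3 higher and 2 lower (Benjamini-Hochberg adjusted p under 0.05), against 38% of all 9717 genes tested, 16.4% higher and 21.6% lower. The values of 8 of the 10 members did not overlap between the groups (6 higher, 2 lower), as was so for 47% of all listed genes (21.9% higher, 25% lower).

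Cd8a encodes the chain shared by both forms of CD8 (chromosome 6, 71373427 to 71379173, plus strand, GRCm38). Its level was 566, 612 and 542 FPKM in RFP+ libraries, against 871, 922 and 946 FPKM in RFP- libraries. Each RFP+ library lay below every RFP- library. On the log2 scale Cd8a fell by 0.67 ± 0.07 (SE; adjusted p = 2.1e-04, limma), and this kept its sign and its call under every alternative run. Cd8b1, the β chain of conventional CD8 (chromosome 6, 71322788 to 71337494, plus strand), measured 0.72, 0.928 and 1.16 FPKM in RFP+ libraries, against 1.27, 1.09 and 0.777 FPKM in RFP- libraries, which is 16 to 31 reads per library. The groups overlapped (adjusted p = 0.67). Per length, Cd8b1 was 0.127, 0.152 and 0.213% of Cd8a in RFP+ libraries and 0.145, 0.119 and 0.0821% in RFP- libraries, so the α chain transcript far outnumbered the β chain transcript in all 6.

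Cd2 (chromosome 3, 101275899 to 101287939, minus strand), the adhesion and costimulatory receptor, showed the widest tested difference of the members. It was at 22.1, 20.4 and 24.3 FPKM in RFP+ libraries, against 2.54, 2.17 and 1.89 FPKM in RFP- libraries. All RFP+ libraries stood far above all RFP- libraries, with a log2 fold change of 2.86 ± 0.09 (SE, adjusted p = 8.3e-07). Cd28 (chromosome 1, 60716800 to 60773359, plus strand), the receptor for CD80 and CD86, measured 3, 0.562 and 1.57 FPKM in RFP+ libraries, against 0.148, 0.098 and 0.0282 FPKM in RFP- libraries. The groups did not overlap, but the RFP+ libraries differed widely among themselves, and the RFP- values rest on 15, 10 and 3 reads. Cd28 did not pass the filter, and a fit without it gave a log2 fold change of 1.21 ± 0.3 (adjusted p = 0.023).

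Both scavenger receptors were expressed at low levels and also lay higher in RFP+ cells. Cd5 (chromosome 19, 10717116 to 10739002, minus strand) measured 0.339, 0.321 and 0.348 FPKM in RFP+ libraries, against 0.0737, 0.292 and 0.0584 FPKM in RFP- libraries. RFP- replicate 2 came close to the RFP+ libraries, and the counts were 23 to 29 reads in RFP+ and 6, 24 and 5 reads in RFP- libraries. Cd6, on the same strand nearby (chromosome 19, 10789341 to 10830058), measured 0.888, 0.553 and 0.772 FPKM in RFP+ libraries, against 0.129, 0.218 and 0.173 FPKM in RFP- libraries. The Cd6 groups were well apart. Neither gene passed the filter of 1 FPKM. Fitted without it, Cd6 had a log2 fold change of 0.56 ± 0.08 (adjusted p = 0.0024) and Cd5 one of 0.23 ± 0.08 (adjusted p = 0.069), on a log2(FPKM + 1) scale that understates changes at such low levels.

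Among the intracellular members the kinases differed little. Lck (chromosome 4, 129548344 to 129573641, minus strand) measured 293, 305 and 299 FPKM in RFP+ libraries, against 300.3, 301 and 293 FPKM in RFP- libraries. The groups overlapped throughout (log2 fold change 0.00 ± 0.05, adjusted p = 0.96). That value depended on the scale: it was 0.16 (adjusted p = 0.025) after totals were rescaled, a step that shifted the median of all genes to 0.12, and -0.16 (adjusted p = 0.02) with quantile normalization. Fyn (chromosome 10, 39368855 to 39565381, plus strand) measured 152, 159 and 164 FPKM in RFP+ libraries, against 190.5, 184 and 179 FPKM in RFP- libraries. It was lower in all 3 RFP+ libraries (log2 fold change -0.22 ± 0.05, adjusted p = 0.013). The Fyn call was lost with totals rescaled (-0.06, adjusted p = 0.31) and without RFP+ replicate 1 (-0.19, adjusted p = 0.058). Per length, the level of Lck was 1.93, 1.92 and 1.83 times that of Fyn in RFP+ libraries and 1.58, 1.64 and 1.64 times in RFP- libraries.

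The adaptor gene Lat (chromosome 7, 126363824 to 126369570, minus strand) measured 40.1, 36 and 39.6 FPKM in RFP+ libraries, against 29.8, 32.2 and 31.5 FPKM in RFP- libraries. The groups did not overlap, and the log2 fold change was 0.3 ± 0.06 (SE, adjusted p = 0.0055). Themis (chromosome 10, 28668360 to 28883818, plus strand) measured 2.93, 2.2 and 2.29 FPKM in RFP+ libraries, against 0.741, 0.724 and 1.01 FPKM in RFP- libraries. It was higher in all 3 RFP+ libraries, with a log2 fold change of 0.93 ± 0.12 (adjusted p = 5.2e-04). Themis reached the filter of 1 FPKM through the RFP+ libraries and a single RFP- library.

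**Figure D1:**
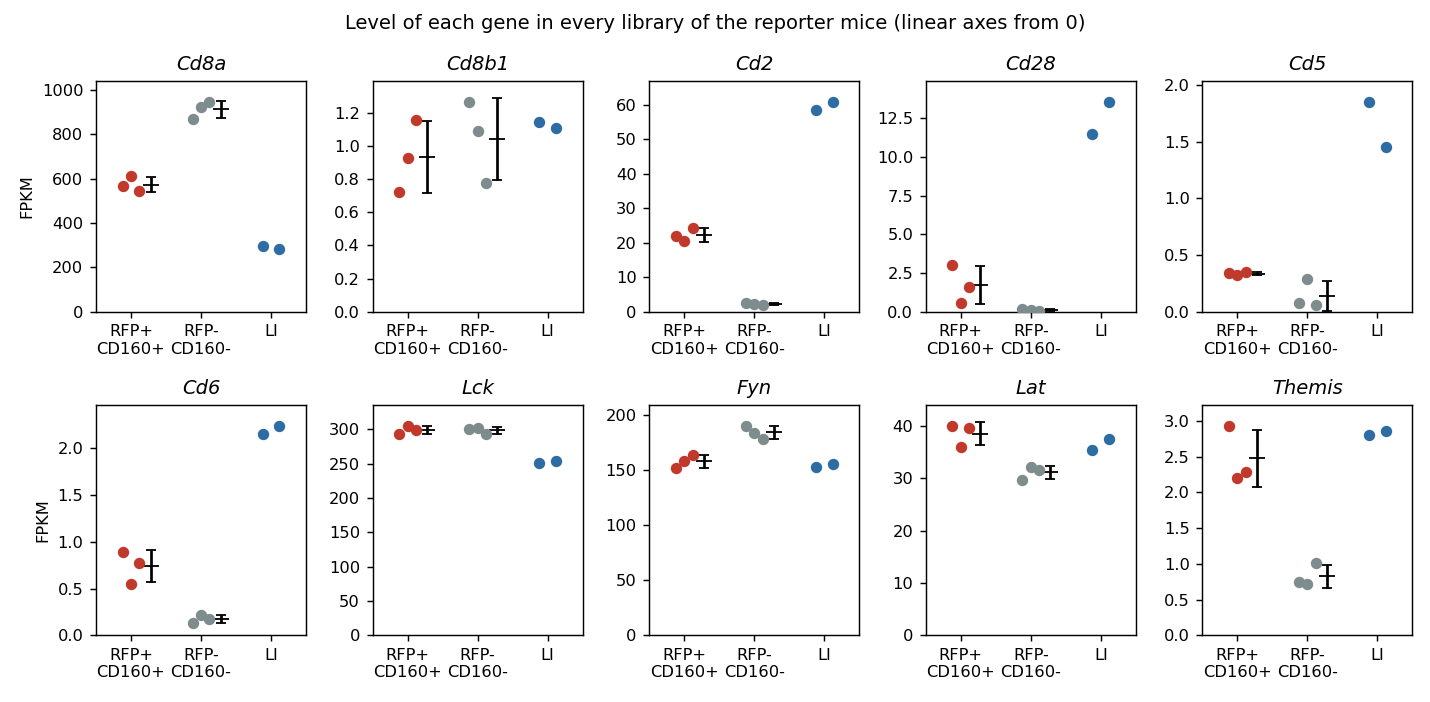
FPKM of the 10 genes in each library of the reporter mice, on linear axes that start at 0: RFP+CD160+ libraries in red, RFP-CD160- libraries in grey and the LI libraries, which have no group, in blue, with bars for the mean ± SD of 3 libraries. Cd2 sat at 20.4 to 24.3 FPKM in RFP+ and 1.89 to 2.54 FPKM in RFP- libraries, while Cd8a ran the other way and Lck overlapped.

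The surrounding pathway was split in the same sorted cells. Over all 9717 genes tested, 16.4% were called higher and 21.6% lower. Of 24 genes of the TCR complex and activating proximal signalling, all tested, 7 were called higher and 8 lower (median log2 fold change 0.08, against -0.03 over all genes). Tespa1, a TCR signalling protein of developing thymocytes, averaged 13.1 ± 0.689 in RFP+ and 4.38 ± 0.747 FPKM in RFP- libraries (SD, n = 3 each, limma adjusted p = 2.8e-05). Prkcq, the protein kinase C of T cells, averaged 15.7 ± 0.184 in RFP+ and 10.7 ± 0.358 FPKM in RFP- libraries (limma adjusted p = 1.5e-04). The adaptor gene Skap1 was also higher. Sh2d2a, which encodes an LCK-binding adaptor, averaged 116 ± 4.36 in RFP+ and 205 ± 5.61 FPKM in RFP- libraries (limma adjusted p = 1.4e-05), and Malt1 and the CD3 chain gene Cd3g fell with it. Of 17 negative regulators, 16 were tested, with 4 higher and 6 lower (median 0.04). Diacylglycerol kinase gene Dgka averaged 48.3 ± 2.56 in RFP+ and 21.8 ± 1.64 FPKM in RFP- libraries (limma adjusted p = 1.1e-05), and Lax1 and Cblb were higher too. Pag1, the membrane anchor of the LCK inhibitor CSK, averaged 8.83 ± 0.982 in RFP+ and 22.3 ± 3.49 FPKM in RFP- libraries (limma adjusted p = 1.1e-04), and Sla2 and Dok1 were lower too. These counts depend on the scale, since with library totals rescaled the 61 tested genes of the 4 lists gave 31 higher and 15 lower, against 17 and 23. Over all genes the same step gave 3300 higher and 1171 lower, against 1591 and 2098.

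Relatives and partners of the members were mostly under the filter (8 of 19 tested), with 1 higher, the costimulatory receptor gene Cd27, and 4 lower (median -0.54). Themis2, the relative of Themis used by B and myeloid cells, averaged 2.51 ± 0.419 in RFP+ and 7.72 ± 0.582 FPKM in RFP- libraries (limma adjusted p = 3.7e-05), the reverse of Themis itself. The Src-family kinase genes Lyn and Fgr were lower as well, at 15.9 ± 0.46 and 23.4 ± 3.06 FPKM in RFP+ libraries, against 26.6 ± 1.84 and 46.6 ± 1.89 FPKM in RFP- libraries. Lyn, Fgr and Themis2 are also myeloid genes. The 9 myeloid and dendritic markers, of which 6 were measured, summed to 14.2 to 19.9 FPKM in RFP+ and 38.7 to 55.03 FPKM in RFP- libraries. Most of that sum was the integrin gene Itgax. Cd68 was called lower too (2.45 ± 0.323 in RFP+ and 3.53 ± 0.587 FPKM in RFP- libraries, limma adjusted p = 0.031), Xcr1 averaged 0.159 in RFP+ and 0.546 FPKM in RFP- libraries under the filter, and Csf1r was at no more than 0.0347 FPKM in any of the 6 libraries. The part of such cells in these values was not tested. Of 13 regulators of the Cd8 locus, 5 were called higher and 5 lower (median -0.15). Beside the counts of both lists, 16.4% of all genes tested were called higher and 21.6% lower. Tcf7, Satb1 and Lef1 were called higher in RFP+ libraries, Satb1 and Lef1 after passing the filter through the RFP+ group alone, where they are high. Runx1 averaged 0.496 ± 0.0862 in RFP+ and 5.66 ± 0.489 FPKM in RFP- libraries (limma adjusted p = 2.0e-06), and it passed the filter through the RFP- group alone. Zbtb7b, which encodes the CD4-lineage factor ThPOK, averaged 4.64 ± 0.0799 in RFP+ and 9.16 ± 0.295 FPKM in RFP- libraries (limma adjusted p = 2.0e-05), and Gata3 was lower by a small margin.

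In the Bcl6 experiment, the receptors Cd2, Cd28, Cd5 and Cd6 were lower in both knockout libraries than in both littermates, but no member passed the test. Limma called 0 of the 9 members tested (3 at an unadjusted p under 0.05), against 0.418% of all 9573 genes tested (0.0313% higher, 0.387% lower), so few genes of any kind were called here. The groups did not overlap for 5 of the 10 members, all lower, which was so in that direction for 16.9% of all listed genes, with 15.9% higher and 32.8% in either direction.

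Cd5 was at 0.216 and 0.0447 FPKM in Bcl6 knockout libraries, against 1.03 and 0.816 FPKM in littermates. That is 24 and 5 reads in knockouts, against 117 and 89 reads in littermates. Cd5 was under the filter, and without it the log2 fold change was -0.77 ± 0.14 (adjusted p = 0.14). Cd6 was at 0.919 and 0.492 FPKM in knockouts, against 1.51 and 1.83 FPKM in littermates (log2 fold change -0.66 ± 0.21, adjusted p = 0.58). Cd28 was at 0.543 and 0.511 FPKM in knockouts, against 1.38 and 1.45 FPKM in littermates (-0.66 ± 0.19, adjusted p = 0.43). Both Cd6 and Cd28 reached 1 FPKM in littermates only, so they entered the test through the group where they are high. Cd2 was at 17.9 and 14.4 FPKM in knockouts, against 22.4 and 21.7 FPKM in littermates (-0.43 ± 0.17, adjusted p = 0.80).

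The signalling members showed no shared direction in the Bcl6 experiment. Lat was at 48.5 and 43.3 FPKM in knockouts, against 49.6 and 49.4 FPKM in littermates (adjusted p = 0.96). Lck was at 963 and 824 FPKM in knockouts, against 765 and 863 FPKM in littermates (adjusted p = 0.96). Cd8a was at 632 and 531 FPKM in knockouts, against 593 and 608 FPKM in littermates (adjusted p = 0.98). The group means of these 3 genes differed by less than the SD of the knockout libraries. Fyn was at 28.6 and 51.9 FPKM in knockouts, against 30 and 25.8 FPKM in littermates, so knockout replicate 2 alone stood high (adjusted p = 0.94). Themis was at 1.1 and 1.7 FPKM in knockouts, against 1.94 and 1.61 FPKM in littermates, and Cd8b1 at 1.82 and 1.51 FPKM in knockouts, against 1.52 and 2.16 FPKM in littermates. Both overlapped. A fit without knockout replicate 1 left a lone knockout library, which is assumed to vary like the littermates. There the log2 fold change was -0.58 for Cd2, -0.84 for Cd6 and 0.88 for Fyn, against -0.43, -0.66 and 0.46 with all libraries. Cd6, at 0.492 FPKM in the remaining knockout library, entered that fit through the littermates alone. Of the pathway lists, 0 of 64 tested genes were called in the Bcl6 knockout by limma (6 at an unadjusted p under 0.05). Of all 9573 genes tested, 0.418% were called. Medians of the lists ran from -0.12 to 0.03, beside 0.03 over all genes.

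After loss of Prdm1, Lat was the only member called, and the members of low level split by replicate number. Limma called 1 of 10 members, lower, against 6.84% of all 10969 genes tested (4.29% higher, 2.54% lower). The groups did not overlap for 4 members (1 higher, 3 lower), a share under the 51.9% of all listed genes (25.5% higher, 26.4% lower).

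Lat was at 2599 and 2586 signal in Prdm1 knockout libraries, against 3427 and 3502 signal in littermates. The libraries of each group lay close together (log2 fold change -0.42 ± 0.09, adjusted p = 0.042). Its size hardly changed across alternatives (-0.43 to -0.34), yet the call was lost in 7 of 13 of them, with adjusted p up to 0.21. The call held in edgeR and DESeq2 on recovered reads. Cd2 was at 645 and 539 signal in knockouts, against 378 and 425 signal in littermates, higher in both knockout libraries (log2 fold change 0.56 ± 0.16, adjusted p = 0.10, and 0.039 in DESeq2). Themis was at 664 and 784 signal in knockouts, against 913 and 970 signal in littermates (-0.38 ± 0.13, adjusted p = 0.17). Cd8a was at 86285 and 93206 signal in knockouts, against 103913 and 116904 signal in littermates (-0.3 ± 0.19, adjusted p = 0.42). Both were lower in both knockout libraries without passing. Lck was at 30717 and 31097 signal in knockouts, against 28924 and 33543 signal in littermates, and Fyn at 25659 and 24277 signal in knockouts, against 29908 and 25354 signal in littermates.

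The members of low level in the Prdm1 experiment, Cd8b1, Cd5, Cd28 and Cd6, overlapped between the genotypes. Cd8b1 was at 135 and 27 signal in knockouts, against 98.3 and 8.63 signal in littermates, where the lowest library holds 10 reads. Cd5 was at 126 and 28.1 signal in knockouts, against 64.1 and 23.3 signal in littermates. Cd28 was at 287 and 82.1 signal in knockouts, against 134 and 64.7 signal in littermates. Cd6 was at 261 and 152 signal in knockouts, against 518 and 161 signal in littermates. The direction of all 4 turned with the library left out: log2 fold changes ran from -1.38 to 0.30 for Cd6, -0.18 to 1.61 for Cd28, -0.45 to 1.68 for Cd5 and -0.69 to 2.68 for Cd8b1. Calls appeared for Cd6 without littermate replicate 2 (-1.38, adjusted p = 0.014) and for Cd28 without knockout replicate 2 (1.61, adjusted p = 0.019). In each of these 4 genes replicate 1 was above replicate 2 in both genotypes, by 1.72 to 4.98 times in knockouts and 2.08 to 11.4 times in littermates. The conventional T-cell markers, with Cd8b1 among them, summed to 2104 and 1689 signal in knockouts and 1979 and 1785 signal in littermates. Il7r moved the same way, at 408 and 191 signal in knockouts, against 198 and 141 signal in littermates, and Cd4 did not, at 48.7 and 66.5 signal in knockouts, against 6.21 and 8.63 signal in littermates. The part of such cells in these values was not tested.

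Of the pathway genes, 69 were tested in the Prdm1 experiment, with 4 higher and 4 lower. Over all 10969 genes tested, 4.29% were called higher and 2.54% lower. Tespa1 averaged 2880 ± 118 in knockouts and 1758 ± 51.9 signal in littermates (SD, n = 2 each, limma adjusted p = 0.010). Cd2ap, an adaptor that binds the CD2 tail, averaged 321 ± 103 in knockouts and 107 ± 15.6 signal in littermates (limma adjusted p = 0.025). H2-T3, the ligand of CD8αα, averaged 116 ± 2.14 in knockouts and 39.2 ± 9 signal in littermates (limma adjusted p = 0.041), and it passed the filter of 50 through the knockouts alone. Cd2ap and H2-T3 are also expressed by epithelium, whose 9 markers summed to 6147 and 6973 signal in knockouts and 4021 and 3718 signal in littermates. Most of the littermate sum was Epcam, which differed little (2787 ± 34.3 in knockouts and 2761 ± 23.4 signal in littermates). Krt8, Krt18, Alpi, Muc2, Vil1, Krt20 and Fabp2 were all called higher. Their ratios of group means ran from 2.335 (Fabp2) to 4.51 (Krt8), beside 2.99 for Cd2ap and 2.96 for H2-T3. The part of those cells was not tested. Tcf7 was the other pathway gene called higher. Pag1 (3824 ± 183 in knockouts and 8643 ± 3012 signal in littermates), Sla2, Fgr and Runx1 (334 ± 166 in knockouts and 2497 ± 875 signal in littermates) were called lower. The myeloid and dendritic list (8 of 9 measured) summed to 6582 and 6493 signal in knockouts and 12310 and 9981 signal in littermates. Most of that sum was Itgax, called lower (5902 ± 132 in knockouts and 10785 ± 1680 signal in littermates, limma adjusted p = 0.014). Its other genes were mixed. H2-Aa was called higher (289 ± 10.6 in knockouts and 101 ± 17.6 signal in littermates, limma adjusted p = 0.014). Lyz2 averaged 171 in knockouts and 42.2 signal in littermates without a call, and Xcr1, under the filter, 13.2 and 59. The part of such cells in the Fgr value was not tested. Medians of the 4 lists ran from -0.14 to -0.02, against -0.04 over all genes.

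Cd5, Cd6 and Themis rose in Tcf7 knockouts, and the coreceptor and kinase transcripts were not called. Limma called 3 of 10 members higher and 0 lower, against 2.72% of all 15210 genes tested (1.49% higher, 1.23% lower). The groups did not overlap for 8 members (7 higher, 1 lower), against 38.3% of all listed genes (19.1% higher, 19.2% lower).

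Cd5 was at 280 and 326 signal in Tcf7 knockout libraries, against 121 and 80.6 signal in littermates. That is 281 and 344 reads in knockouts, against 127 and 73 reads in littermates, with both knockouts well above both littermates (log2 fold change 1.6 ± 0.24, SE, adjusted p = 0.0016). Cd6 was at 608 and 592 signal in knockouts, against 328 and 295 signal in littermates, and rose by 0.94 ± 0.14 (adjusted p = 0.0013). Themis was at 1914 and 2003 signal in knockouts, against 1280 and 1187 signal in littermates, and rose by 0.67 ± 0.08 (adjusted p = 2.8e-04). The knockout and littermate libraries of these 3 genes did not overlap. Libraries of a group lay close together for Cd6 and Themis, while Cd5 in littermate replicate 1 was 1.5 times that in replicate 2. Their calls held in every alternative except a fit without the mean-variance trend, where 9 genes in all were called in place of 413 and their adjusted p was 0.17, 0.10 and 0.12.

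Cd28 was at 119 and 83.3 signal in Tcf7 knockouts, against 57.1 and 55.2 signal in littermates (log2 fold change 0.82 ± 0.32, adjusted p = 0.29). Cd8b1 was at 303 and 263 signal in knockouts, against 247 and 136 signal in littermates (0.62 ± 0.25, adjusted p = 0.30), a value that ran from 0.19 (adjusted p = 0.76) without littermate replicate 2 to 1.05 (adjusted p = 6.3e-04) without littermate replicate 1. Both lay higher in both knockout libraries without passing. Cd2 was at 956 and 984 signal in knockouts, against 897 and 861 signal in littermates (adjusted p = 0.61). Cd8a was at 153468 and 153670 signal in knockouts, against 152847 and 147594 signal in littermates (log2 fold change 0.03 ± 0.05, adjusted p = 0.86). Lck was at 44191 and 43140 signal in knockouts, against 46916 and 45704 signal in littermates (-0.08 ± 0.05, adjusted p = 0.50). None of these 3 genes was called. Fyn, at 32168 and 32942 signal in knockouts against 31240 and 32693 signal in littermates, and Lat, at 5741 and 5534 signal in knockouts against 6222 and 5643 signal in littermates, overlapped.

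The conventional T-cell markers summed to 3312 and 2995 signal in Tcf7 knockouts and 2929 and 2924 signal in littermates. Among them Cd4, named after its values were seen, was at 55.7 and 50.2 signal in knockouts, against 22.8 and 11.04 signal in littermates (adjusted p = 0.14). Cd4 also lay higher in both Bcl6 knockout libraries, at 1.76 and 1.08 FPKM, against 0.0863 and 0.179 FPKM in littermates (adjusted p = 0.12). In both experiments Cd4 passed the filter through the knockouts alone, where it is high. The chemokine receptor gene Ccr7, another marker of that list, lay the other way. It was at 46.8 and 32.2 signal in Tcf7 knockouts, against 98.02 and 89.4 signal in littermates. The epithelial list summed to 9372 and 8846 signal in Tcf7 knockouts and 7143 and 7381 signal in littermates, with the goblet-cell gene Muc2 called higher (1197 ± 3.19 in knockouts and 631 ± 45.2 signal in littermates; SD, n = 2 each, limma adjusted p = 1.4e-04). The B and plasma cell list summed to 1335 and 1329 signal in knockouts and 1189 and 1104 signal in littermates, and the NK and innate lymphoid list to 4576 and 4434 signal in knockouts and 4180 and 4050 signal in littermates. Only the sum of the myeloid and dendritic list ran the other way, with 19050 and 19660 signal in knockouts and 20420 and 20230 signal in littermates. Nearly all of it was Itgax (18839 ± 405 in knockouts and 19934 ± 118 signal in littermates, not called). Xcr1 was called higher (100 ± 9.49 in knockouts and 37.6 ± 6.12 signal in littermates, limma adjusted p = 0.049), after passing the filter through the knockouts alone. Without a call, Lyz2 (139 and 82.7) and Cd68 (200 and 169) averaged higher in knockouts and H2-Aa (61.6 and 86.2) lower. The part of such cells in the Cd5, Cd6 and Themis values was not tested.

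**Figure D2:**
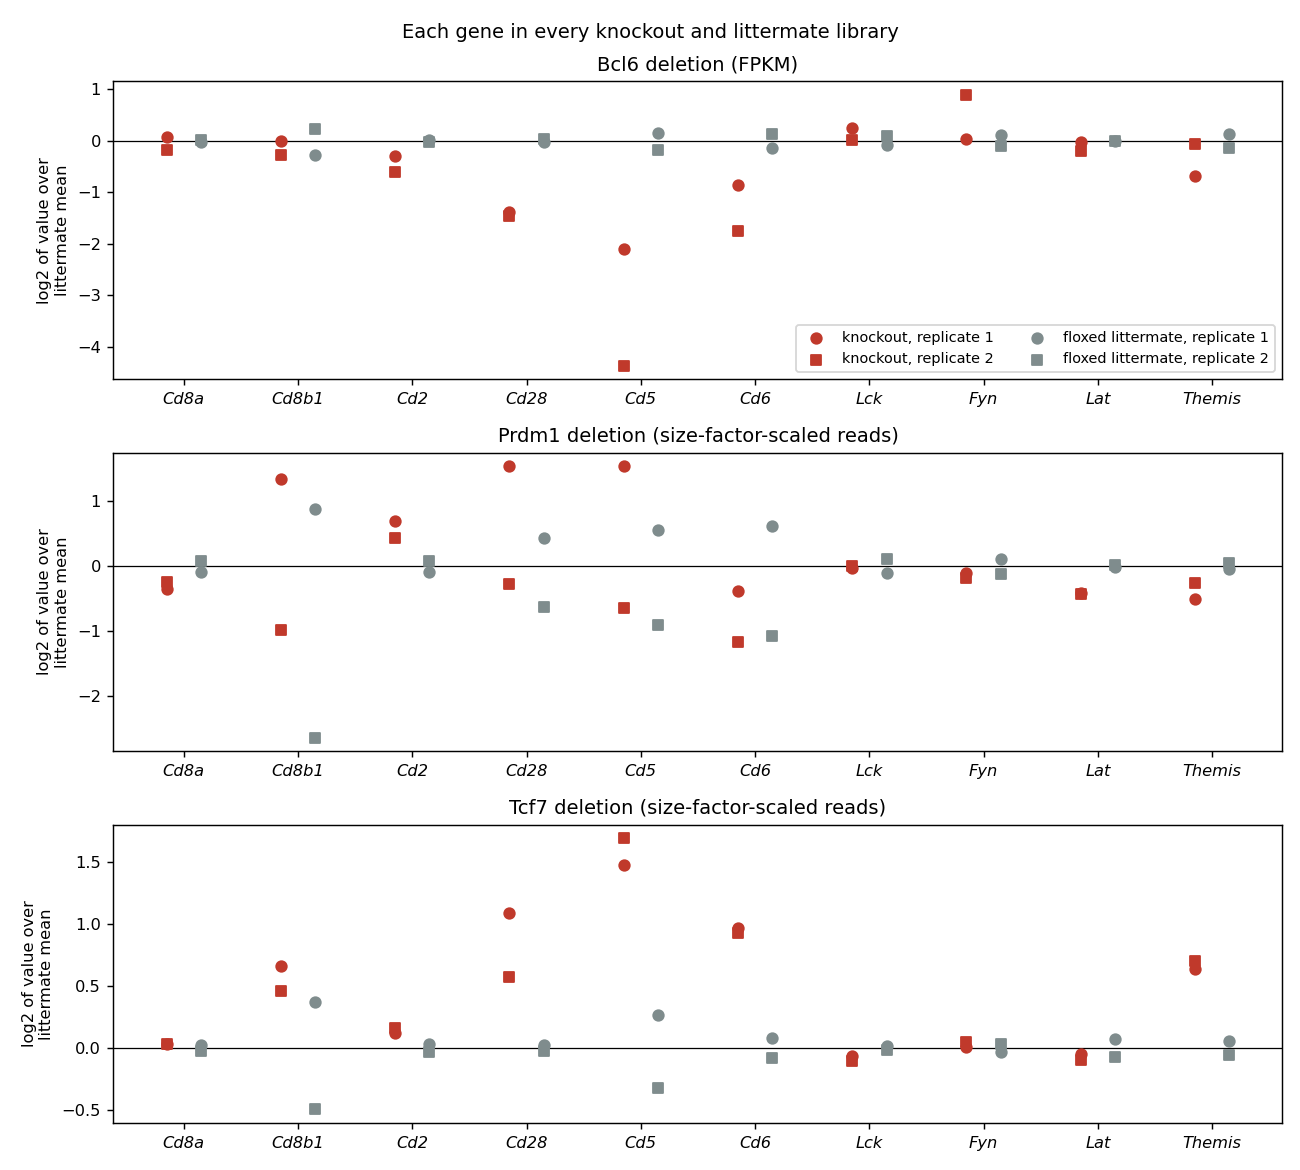
Each gene in the libraries of the 3 deletions, as log2 of its value over the mean of its littermates: knockouts in red, floxed littermates in grey, circles for replicate 1 and squares for replicate 2, with 2 libraries a group and vertical axes that differ between panels. Cd5, Cd6 and Cd28 sat below 0 in both Bcl6 knockouts and Cd5, Cd6 and Themis above 0 in both Tcf7 knockouts, while Cd8b1, Cd28, Cd5 and Cd6 split by replicate number in the Prdm1 experiment.

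Around the members, 7 of 72 tested pathway genes were called in Tcf7 knockouts, 4 higher and 3 lower. Over all 15210 genes tested, 2.72% were called, 1.49% higher and 1.23% lower. Ctla4, the inhibitory relative of Cd28, averaged 1880 ± 2.16 in knockouts and 1171 ± 97 signal in littermates (SD, n = 2 each, limma adjusted p = 3.4e-04). Malt1, Pag1 and Fgr were the other genes called higher. Dgka averaged 5406 ± 122 in knockouts and 8327 ± 241 signal in littermates (limma adjusted p = 2.2e-05). Trat1, a TCR-associated adaptor gene, averaged 5201 ± 155 in knockouts and 6830 ± 255 signal in littermates (limma adjusted p = 0.0011), and the deleted Tcf7 was the third gene called lower. Medians of the 4 lists ran from -0.01 to 0.05, against 0.00 over all genes.

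**Figure D3:**
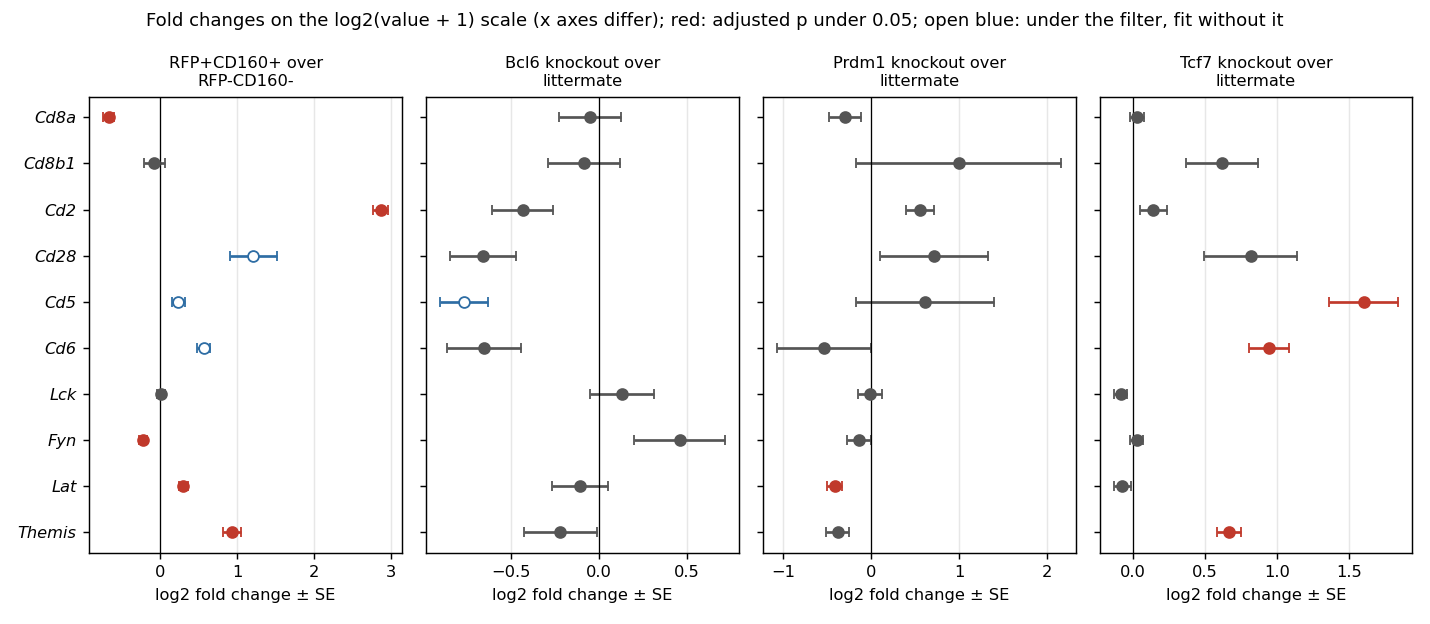
Log2 fold change ± SE of each gene in the 4 comparisons, each panel with its own horizontal axis: red for an adjusted p under 0.05 in limma, grey for tested without a call, and open blue for genes under the filter, taken from a fit without it. Cd5 and Cd6 lay above 0 in RFP+ cells and in Tcf7 knockouts and below 0 in Bcl6 knockouts, and Lck lay between -0.08 and 0.13 in all 4, with a sign in RFP+ cells that turned under quantile normalization.

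Across the 4 comparisons, which share no libraries, the ratios of the surface receptors Cd5, Cd6 and Cd2 covered a wider range than that of Lck. Cd5 had a ratio of group means of 2.38 in RFP+ over RFP- cells, 0.141 in Bcl6, 1.76 in Prdm1 and 3 in Tcf7 knockouts over littermates, and Cd6 had 4.25, 0.423, 0.607 and 1.93. The same ratio of Cd2 was 10.1, 0.732, 1.48 and 1.1. For Lck it was 1, 1.1, 0.989 and 0.943. Of the other members, Cd28 had 18.7, 0.372, 1.85 and 1.8, and Themis had 3, 0.787, 0.769 and 1.59. Cd8a had 0.628, 0.9685, 0.813 and 1.02, and Cd8b1 had 0.895, 0.9055, 1.51 and 1.48. Fyn had 0.857, 1.44, 0.904 and 1.02, and Lat had 1.24, 0.927, 0.748 and 0.95. The Prdm1 values of Cd5, Cd6, Cd28 and Cd8b1 change sign with the library left out, as given above. Of the Cd5, Cd6, Cd2 and Lck ratios, only those of Cd2 in RFP+ cells and of Cd5 and Cd6 in Tcf7 knockouts belong to a call. Of the rest, those of Cd8a, Fyn, Lat and Themis in RFP+ cells, Lat in Prdm1 and Themis in Tcf7 knockouts do. Cd5 rests on 5 to 29 reads in sorted and 5 to 117 reads in Bcl6 libraries, against 12860 to 14899 and 51565 to 63550 reads for Lck. The part of counting error in the wider ranges was not tested, nor whether the effects differ between comparisons.

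Genes with the most similar profile were sought over the 18 libraries with a group, among 9030 genes that passed the filter in all 4 experiments, by Euclidean distance of log2 values centred in each experiment. Nearest to Cd2 was Thy1, the gene of another surface protein that CD8αα+ IELs often lack (distance 0.89), before Rgs10 (1.12) and Ms4a4b (1.16). Nearest to Themis was Lef1, a relative of Tcf7 (0.83), before Tiparp (0.99) and Znrf1 (1). Cd8a lay closest to Nucb1 (0.275), Ctsb (0.278) and Itm2b (0.286). Lck lay closest to Slc17a9 (0.163), Anapc11 and Ganab, Fyn to Pum2 (0.213), Larp4b and Picalm, and Lat to Prr3 (0.345), Mrps7 and Slc7a6os. Cd8b1 had no close neighbour, with Nr4a3 nearest at 2.19, before Mettl27 and Ndufc1. The members Cd5, Cd6 and Cd28 were not ranked because they did not pass the filter everywhere.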

How the data were processed

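Per the submitters' processing notes, the authors used Trim Galore 0.4.4, Bowtie2, featureCounts, Subread, RSEM, DESeq2 and build mm10, with no role or order given. Per the labels, BGI Genomics or Novogene made the libraries, without saying which made which, so provider and group cannot be told apart. The strand setting of the counting is not given in the sources used here, so reads of antisense genes at Fyn (Gm16364, Gm16365) and of pseudogenes at Themis cannot be told apart. The reporter, LI and Bcl6 values were deposited as FPKM. The Prdm1 and Tcf7 files are also named FPKM, but they hold a deposited signal, reads divided by 1 size factor per library: 100% of values were whole multiples of the smallest value (tolerance 0.02). For the FPKM files, depth was searched for per library. It was set where FPKM times GENCODE vM21 exon length and depth came out as whole reads for nearly the most low values. That share, 97.05 to 97.8%, is thus what the search aimed at. The depth found gave the reads behind each member. Depth of the signal files is the sum of recovered reads over listed genes. In the signal files, 69.6 to 81.4% of values up to 20 reads were even, so pairs of reads may have been counted as 2 and counting error may be larger than the reads imply.

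The planned FPKM threshold was replaced by 50 in the signal tables. A gene was tested where its value reached 1 FPKM, or 50 signal, in at least the number of libraries of 1 group. Fits were made per experiment with limma 3.58.1 under R 4.3.3 (a linear model with moderated variances and a mean-variance trend) on log2(value + 1), and p-values were adjusted over all genes tested (Benjamini-Hochberg, two-sided, threshold 0.05). Fold changes are on that scale. The step was tested on simulated data. Alternatives changed the pseudocount, filter, scaling, trend and replicate block, left out each library, or used edgeR 4.0.16 and DESeq2 1.42.0 on recovered Prdm1 reads. Members and gene lists were chosen with earlier results of these data known. All members are named, and of each list up to 3 called genes per direction by smallest p. Gene positions are from GENCODE vM21 (GRCm38).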

Additional observations from a re-analysis of the deposited data

Results flagged for a closer look

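The LI libraries, which no comparison uses, held 4 receptor transcripts above all 6 sorted libraries of the same reporter genotype. Cd2 was at 58.6 and 60.8 FPKM in LI libraries, against 1.89 to 24.3 FPKM in the sorted libraries. Cd28 was at 11.5 and 13.6 FPKM in LI libraries, against 0.0282 to 3 FPKM. Cd5 was at 1.85 and 1.45 FPKM in LI libraries, against 0.0584 to 0.348 FPKM. Cd6 was at 2.15 and 2.24 FPKM in LI libraries, against 0.129 to 0.888 FPKM. These values rest on 161 to 3061 reads per gene and library. The conventional T-cell marker list, which includes Cd8b1, also summed higher in LI libraries, to 22.9 and 24.2 FPKM, against 11.4 to 14.2 FPKM in the sorted libraries, and its part in these values was not tested. The labels give these 2 libraries no sort, so the differences were not tested.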

How the results depend on the processing

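Of 439 alternative values for the 36 member fold changes tested, 393 kept their direction and their side of the threshold, 12 lost a call, 13 gained one and 21 changed sign. Each of the 21 started from a fold change that was not called, and Lck in RFP+ cells was called after turning (-0.16 with quantile normalization, -0.0103 to 0.0183 with a library left out). In RFP+ cells Cd8b1 (main -0.08) was 0.0016 with totals rescaled and -0.18 to 0.0034 with a library left out. In Bcl6 knockouts Cd8a (main -0.05) was 0.0533 with quantile normalization and -0.18 to 0.0745 with a library left out, and Cd8b1 ran from -0.25 to 0.0784. In Prdm1 knockouts Lck (main -0.01) was 0.0652 with totals rescaled, 0.0103 with quantile normalization, 0.0247 in edgeR, 0.0199 in DESeq2 and -0.12 to 0.10 with a library left out. Cd5 there was -0.21 with quantile normalization and -0.45 to 1.68 with a library left out, Cd8b1 ran from -0.69 to 2.68, Cd6 from -1.38 to 0.30 and Cd28 from -0.18 to 1.61. Fyn in Tcf7 knockouts ran from -0.0062 to 0.0594. In the reporter experiment the counts of called members (4 to 6 with a library left out), pathway genes (32 to 38) and all genes (2706 to 3402) stayed within 1.5 times the main counts, but rescaled library totals turned the split of all genes to 3300 higher and 1171 lower, against 1591 and 2098, and quantile normalization to 2014 and 1747. In the Bcl6 experiment leaving out a library gave 0 to 4 members, 0 to 12 pathway genes and 39 to 1562 genes, the highest without knockout replicate 1, and 199 genes without knockout replicate 2. In the Prdm1 experiment the called members became 0 with totals rescaled, 0 with quantile normalization, 0 without the trend and 2 in DESeq2, and ran from 0 to 1 with a library left out. Pathway genes became 3 without the trend and 15 in DESeq2 (6 to 17 with a library left out), and all genes 1184 in DESeq2 (569 to 1255, highest without littermate replicate 2), against 772 in edgeR. In the Tcf7 experiment a fit without the trend called 0 members, 0 pathway genes and 9 genes; leaving out a library gave 3 to 4, 5 to 10 and 243 to 738 (243 and 268 without knockout replicates 1 and 2, 727 and 738 without littermate replicates 1 and 2). The planned edgeR and DESeq2 fits of the Tcf7 table were not run. The cause of these changes was not tested.

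With the replicate number as a block, called members were 5 in the reporter, 0 in the Bcl6, 3 in the Prdm1 (Lat, with Cd2, adjusted p = 0.015, and Themis, adjusted p = 0.026) and 3 in the Tcf7 experiment. Pathway genes were 31, 1, 25 and 17, and all genes 2992, 78, 2386 and 977. The labels give only a shared number. Same-numbered libraries deviated together in the Prdm1 experiment (correlation of deviations 0.528), hardly in the Tcf7 (0.064) and not in the reporter experiment (-0.331 to -0.000269, so no RFP+ library went best with its own number). A value of -0.459 in the Bcl6 experiment led to a crossed pairing, chosen after seeing the data, which called 3 members, 5 pathway genes and 452 genes. Depth limits Cd8b1, Cd5 and Cd28 most, with 16, 5 and 3 reads in their lowest sorted libraries.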

Other observations

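The remaining members of the LI libraries lay within or below the sorted cells. Cd8a was at 297 and 281 FPKM in LI libraries, under all 6 sorted libraries (542 to 946 FPKM), and Lck at 251 and 254 FPKM, also under all 6 (293 to 305 FPKM). Themis (2.81 and 2.85 FPKM), Lat (35.4 and 37.5), Fyn (153 and 155) and Cd8b1 (1.15 and 1.11) lay inside the sorted range. Per length, Cd8a was 1.18 and 1.11 times Lck in LI libraries, against 1.81 to 2.01 times in RFP+ and 2.9 to 3.23 times in RFP- libraries.

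Per length within a library, Lck stood at 33.6 and 15.9 times Fyn in Bcl6 knockouts and 25.5 and 33.4 times in their littermates. It stood at 1.44 to 2.24 times Fyn in the sorted, Prdm1 and Tcf7 libraries, and at 1.64 and 1.63 times in LI libraries. The Bcl6 experiment is a table of its own, and a cause of the gap was not tested.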
